A study of Mus musculus with 36 samples.

Results

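NF-κB subunits and inhibitors are 10 genes of the nuclear factor κB pathway. The subunits are *Nfkb1*, *Nfkb2*, *Rel*, *Rela* and *Relb*, the IκB family genes are *Nfkbia*, *Nfkbie* and *Nfkbiz*, and the regulators are *Tnfaip3* and *Tnip1*. The members were taken by gene name from the deposited count table, and all 10 were found, each in 1 row, among its 24781 genes. NF-κB factors are dimers of subunits with a shared DNA-binding domain. IκB proteins such as IκBα hold them in the cytoplasm until the IκB kinase (IKK) complex marks these proteins for degradation. The freed dimers then switch on inflammatory genes and also genes for their own inhibitors, so the pathway restrains itself. In macrophages it drives cytokine and chemokine genes after Toll-like receptor, TNF or IL-1 signals, and in T cells it acts downstream of the antigen receptor and of co-stimulation.

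The study asked how the loss of B cells, and GABA given to mice that lack them, alters the immune cells of a tumour. Mice were inoculated with MC38, a mouse colon adenocarcinoma line, and on day 7 tumour-associated macrophages (TAMs, sorted as CD45+CD11b+F4/80high) and CD8+ T cells (CD45+TCRbeta+CD8+) were taken, 100 cells to a library. Each cell type had 3 groups of 6 libraries: wild-type (WT) mice, muMt-/- mice, and muMt-/- mice implanted with a GABA pellet, 36 libraries in all. The muMt-/- mice, on a C57BL/6J background, lack mature B cells from birth. The labels give the treatment of WT and untreated muMt-/- mice as none, while the methods describe a placebo pellet. Ages and sexes of single mice were not used here. The labels call the replicates independent library preparations and the methods give 1 library per mouse.

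Counts are of distinct molecules, since each cDNA carried a molecular barcode before amplification. TAM libraries held between 206394 and 304100 molecules in WT, 100254 and 253608 in muMt-/- and 151856 and 262606 in GABA-treated muMt-/- mice. CD8+ T cell libraries were shallower, with 22896 to 76898, 51064 to 77839 and 65356 to 98015 molecules in the same order. The 10 genes together gave 194 to 302 molecules in a WT TAM library and 36 to 161 in a WT CD8+ T cell library, so most values below rest on small numbers of molecules. Below, a normalized number is a count divided by the library's DESeq2 size factor over the 18 libraries of its cell type. Tests are edgeR quasi-likelihood F-tests over all genes with a mean normalized number above 1, and "passed" means a Benjamini-Hochberg adjusted p under 0.05. All 10 members passed that filter in both cell types.

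The labelled cell types were checked against marker genes. All 22 macrophage markers, among them *Adgre1*, *Csf1r* and *C1qa*, were found in each of the 18 TAM libraries, where they made up 2.15% to 2.72% of molecules in WT, 1.81% to 2.31% in muMt-/- and 1.28% to 2.503% in GABA-treated muMt-/- libraries. All 16 T cell markers, among them *Cd3e* and *Cd8a*, were found in each of the 18 CD8+ T cell libraries. They made up 0.375% to 0.748% of molecules in WT, 0.220% to 0.626% in muMt-/- and 0.233% to 0.723% in GABA-treated muMt-/- libraries. The TAM libraries also held tumour and stroma markers, among them *Col3a1* and *Sparc*. Their share was 0.016% to 0.627%, 0.009% to 0.246% and 0.071% to 0.312% in the same order.

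In TAMs, the subunit *Rel* (c-Rel) had the largest estimated difference of the 10 genes between muMt-/- and WT mice. Its normalized number was 2.90 at the lowest, 4.80 at the median and 8.30 at the highest in WT mice, 3.92, 10.8 and 22.3 in muMt-/- mice, and 3.60, 6.06 and 23.9 in GABA-treated muMt-/- mice. In muMt-/- mice 4 of 6 libraries lay above every WT library, and the GABA-treated group had 1 library at 23.9 with the other 5 between 3.60 and 8.24. The log2 fold change was 1.03 ± 0.40 (SE, n = 6 per group) for muMt-/- against WT, with an adjusted p of 0.188 by edgeR, and -0.39 ± 0.38 for GABA-treated against untreated muMt-/- mice (adjusted p = 0.828). Without the library at 23.9 the latter was -0.86, without muMt-/- replicate 4 it was -0.10, and with the share of *Rn45s* as a covariate it turned to 0.16. *Rel* did not pass in either comparison. Its level also ran against depth, with a Pearson r of -0.66 between log2 normalized number and log2 molecules over the 18 TAM libraries. With log2 molecules as a covariate the log2 fold change of muMt-/- against WT was 0.24.

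*Rela*, which encodes p65, the main transactivating subunit, had normalized numbers of 7.996, 13.2 and 16.7 (lowest, median, highest) in WT TAMs, 5.65, 7.92 and 16.4 in muMt-/- TAMs and 6.10, 10.3 and 18.3 in GABA-treated muMt-/- TAMs. The 3 groups overlapped, with 3 of 6 muMt-/- libraries below every WT library and 1 of them at 16.4, near the WT maximum. The log2 fold change of muMt-/- against WT was -0.31 ± 0.28 (adjusted p = 0.670 by edgeR), and it turned to 0.135 at most with covariates. For GABA-treated against untreated muMt-/- mice it was 0.17 ± 0.30 (edgeR, adjusted p = 0.921), with -0.23 to 0.23 over the other settings tried. *Rela* ran with depth, opposite to *Rel* (r = 0.68 over the same 18 libraries).

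The other 3 subunits were alike in the 3 groups of TAMs within their spread. *Nfkb1*, the gene of p105 and its product p50, had a mean normalized number of 20.6 ± 5.76 (SD, n = 6) in WT, 20.4 ± 5.01 in muMt-/- and 18.8 ± 4.78 in GABA-treated muMt-/- mice. *Nfkb2*, the gene of p100 and p52 in the non-canonical pathway, had means of 8.04 ± 4.11, 9.01 ± 2.25 and 7.85 ± 2.93 in the same order. *Relb*, the partner of p52, had 2 to 12 molecules in a TAM library and means of 3.87 ± 1.92, 5.30 ± 2.76 and 4.37 ± 0.57. None of the 9 log2 fold changes of these genes passed, and all of them lay between -0.17 and 0.29.

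The clearest difference among the inhibitors was that of *Nfkbie*, which encodes IκBε. The 6 WT TAM libraries had normalized numbers from 4.36 to 11.8 with a median of 6.83, the muMt-/- libraries from 9.32 to 19.5 with a median of 14.4, and the GABA-treated muMt-/- libraries from 5.82 to 10.1 with a median of 8.86. In muMt-/- mice 4 of 6 libraries lay above every WT library, and 1 WT library at 11.8 reached into the muMt-/- range. The log2 fold change of muMt-/- against WT was 0.96 ± 0.26 (edgeR, adjusted p = 0.038), a rise of 1.94-fold, and *Nfkbie* ranked 171 by p among the 9469 genes tested. It was the 1 of 10 members that passed in this comparison, where 2.05% of all genes tested (194 genes) passed. The number of genes fell to 69 without muMt-/- replicate 4, 86 without WT replicate 1 and 119 without WT replicate 6. At an unadjusted p under 0.05 the count was 2 of 10, *Nfkbie* and *Rel*, against 14.9% of all genes.

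The raw counts behind the *Nfkbie* value are small and were not higher in each muMt-/- library. WT libraries held 9, 8, 15, 6, 10 and 8 molecules of *Nfkbie* and muMt-/- libraries 8, 9, 15, 14, 20 and 6, while a muMt-/- library had a mean of 164600 molecules in all against 244700 in WT. The precursor ribosomal RNA locus *Rn45s*, the most abundant row of the table in each of the 36 libraries, took 9.45% ± 1.47 (SD, n = 6) of molecules in WT TAMs, 14.4% ± 2.49 in muMt-/- TAMs and 10.7% ± 5.01 in GABA-treated muMt-/- TAMs. The nuclear RNAs *Malat1* and *Neat1* together took 0.313% to 0.384% in WT, 0.458% to 1.04% in muMt-/- and 0.344% to 0.518% in GABA-treated muMt-/- TAM libraries, so WT and muMt-/- libraries did not overlap. The log2 fold change of *Nfkbie* was 0.97 with log2 molecules as a covariate and 0.80 with the log2 share of *Rn45s* as a covariate, a setting chosen after seeing the data, and its adjusted p was then 0.257 and 0.286. It did not pass with a replicate block either (adjusted p = 0.061), nor when any of 9 of the 12 libraries was left out, with adjusted p between 0.021 and 0.127 and a log2 fold change between 0.85 and 1.15 over the 12 refits. Without WT replicates 1, 2, 4, 5 and 6 in turn the adjusted p was 0.066, 0.059, 0.095, 0.075 and 0.082, and without muMt-/- replicates 1, 3, 4 and 5 it was 0.069, 0.072, 0.127 and 0.078. Over the 10 other settings tried it ran from 0.0168 to 0.387, and *Nfkbie* passed in 5 of them, DESeq2's adjusted test among these. In bulk samples of sorted cells, fewer expressing cells and less RNA per cell cannot be told apart.

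With GABA, *Nfkbie* in muMt-/- TAMs had a log2 fold change of -0.77 ± 0.26 (edgeR, adjusted p = 0.333) against untreated muMt-/- mice, which did not pass. In the GABA-treated group 5 of 6 libraries lay below every untreated muMt-/- library. *Nfkbia*, the gene of IκBα, the inhibitor that NF-κB itself induces fastest, had normalized numbers of 29.2, 42.9 and 56.0 (lowest, median, highest) in WT, 32.1, 56.6 and 63.6 in muMt-/- and 19.3, 33.4 and 51.4 in GABA-treated muMt-/- TAMs. The muMt-/- group had 1 low library at 32.1 and the other 5 from 45.2 to 63.6, and 3 of 6 GABA-treated libraries lay below all 6. Its log2 fold change was 0.29 ± 0.20 for muMt-/- against WT (adjusted p = 0.537) and -0.56 ± 0.21 for GABA-treated against untreated muMt-/- mice (adjusted p = 0.372).

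*Nfkbie* and *Nfkbia* were the members under an unadjusted p of 0.05 for GABA-treated against untreated muMt-/- TAMs, 2 of 10 where 8.46% of all genes were, and 0 of 10 passed after adjustment, where 0.0211% of the 9469 genes (2 genes) did. That number of genes was unstable: it was 35 without GABA-treated replicate 1, 5 without GABA-treated replicate 2, 12 and 5 without muMt-/- replicates 5 and 2, and 61 with the log2 share of *Rn45s* as a covariate, and DESeq2's adjusted test called 60 of 840. In each of these settings 0 members passed. By DESeq2's Wald test the unadjusted count was also 2, beside 6.13% of all genes, and 0 members passed after adjustment, although DESeq2 gave an adjusted p for 2 of the 10 only. Against WT mice, GABA-treated muMt-/- TAMs had 0 of 10 members passing by edgeR, beside 0.0739% of all genes, and 0 under an unadjusted p of 0.05, beside 7.02% of all genes and 0 of 10 by DESeq2, beside 4.65%. The 7 genes behind the adjusted share became 2 without WT replicate 3 or 6 or GABA-treated replicate 2 or 3, 3 without WT replicate 1, 2 or 4 or GABA-treated replicate 1, 15 with the *Rn45s* covariate and 63 without a filter on low counts. Both comparisons of muMt-/- mice share the untreated muMt-/- libraries, so their values for a gene are not independent.

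*Nfkbiz*, which encodes the nuclear protein IκBζ, had a narrow range in the 6 WT TAM libraries and wider ranges in the other groups. Normalized numbers ran from 42.7 to 47.2 in WT (mean 45.3 ± 1.93, SD, n = 6), from 42.3 to 90.4 in muMt-/- (60.6 ± 18.03) and from 17.4 to 83.6 in GABA-treated muMt-/- mice (44.5 ± 22.0). In muMt-/- mice 4 of 6 libraries were above every WT library and 1 was below. The WT libraries held 47 to 68 molecules, and their spread was smaller than counting alone gives (14.2% over the 18 TAM libraries). Their evenness therefore cannot be read as a property of WT TAMs, and the number of libraries above every WT library rests on it. The log2 fold changes were 0.36 ± 0.21 for muMt-/- against WT (edgeR, adjusted p = 0.441), which turned to -0.03 with log2 molecules and -0.05 with the share of *Rn45s* as a covariate, and -0.42 ± 0.22 for GABA-treated against untreated muMt-/- mice (adjusted p = 0.619), and neither passed. The value for GABA ran from -0.46 to -0.13 over the other settings tried, and from -0.65 to -0.26 with single libraries left out.

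*Tnfaip3* encodes A20, a ubiquitin-editing enzyme that ends NF-κB signalling, and *Tnip1* encodes ABIN1, a ubiquitin-binding partner of A20. *Tnfaip3* had medians of 17.9, 15.8 and 14.8 in WT, muMt-/- and GABA-treated muMt-/- TAMs, with ranges of 10.2 to 25.7, 14.1 to 32.0 and 7.11 to 21.6. *Tnip1* had medians of 9.03, 6.96 and 7.22, with ranges of 5.82 to 12.8, 3.77 to 14.0 and 2.65 to 9.97. For both genes the 3 groups overlapped, the log2 fold changes lay between -0.39 and 0.07, and none passed. Those of *Tnfaip3* moved widely with the covariates, from -0.44 to 0.54 for muMt-/- against WT, to -0.74 for GABA-treated against untreated muMt-/- and to -0.86 for GABA-treated muMt-/- against WT mice.

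**Figure D1:**
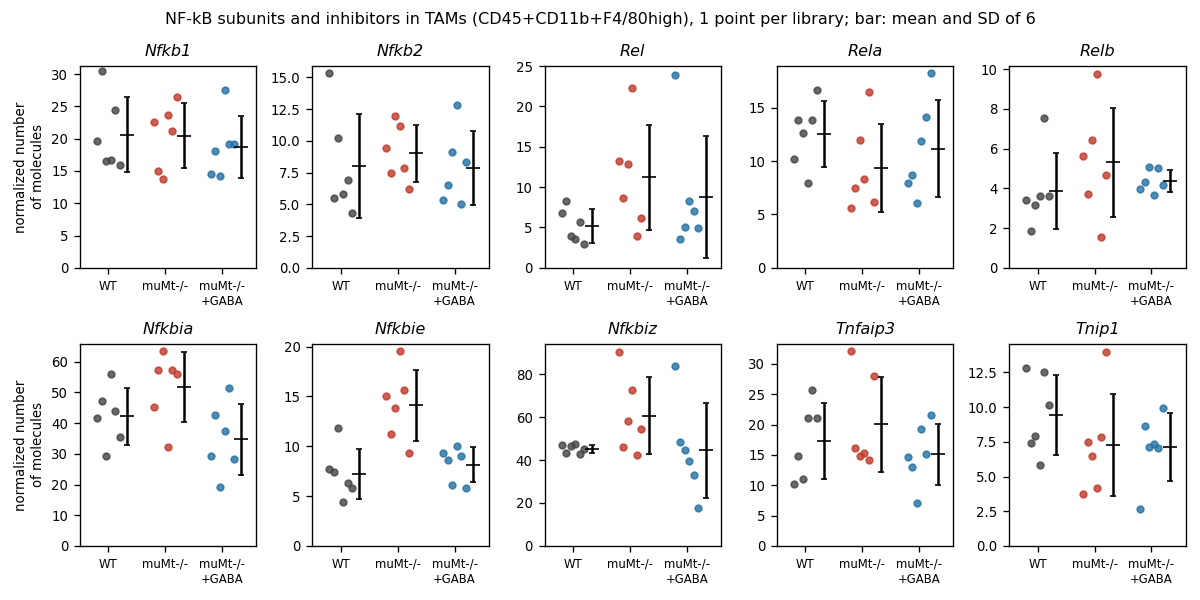
Normalized numbers of molecules of the 10 genes in TAMs, 1 panel per gene with its own axis from 0, 1 point per library in WT, muMt-/- and GABA-treated muMt-/- mice, and a bar for the mean and SD of 6 libraries. *Nfkbie* runs from 4.36 to 11.8 in WT and from 9.32 to 19.5 in muMt-/- mice, and *Rel* has 1 GABA-treated library at 23.9.

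The spread over the 18 TAM libraries, which includes differences between the 3 groups, was set beside the spread that the counting of molecules alone gives. The coefficient of variation was 24.9% beside 22.5% for *Nfkb1*, 36.6% beside 34.9% for *Nfkb2*, 72.5% beside 34.7% for *Rel* and 41.2% beside 32.1% for *Nfkbie*. It was 35.8% beside 30.3% for *Rela*, 43.1% beside 47.4% for *Relb* and 28.9% beside 15.4% for *Nfkbia*. For *Nfkbiz* it was 34.5% beside 14.2%, for *Tnfaip3* 36.8% beside 24.1% and for *Tnip1* 38.5% beside 35.7%. These values do not separate groups from mice.

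In CD8+ T cells none of the 10 members passed in any of the 3 comparisons by edgeR, and no gene of the 6663 tested did (0%). At an unadjusted p under 0.05 the counts were 0 of 10 for muMt-/- against WT mice, beside 6.17% of all genes, 1 of 10 for GABA-treated against untreated muMt-/- mice (*Rel*), beside 3.71%, and 1 of 10 for GABA-treated muMt-/- against WT mice (*Tnfaip3*), beside 6.89%. DESeq2's Wald test gave 0, 0 and 1 at an unadjusted p under 0.05, beside 3.33%, 2.0% and 3.33% of all genes, and 0 of 10 in each comparison after adjustment. The number of all genes was not stable at 0: for muMt-/- against WT mice 13 passed without WT replicate 5 and 72 without a filter on low counts, and for the other comparisons up to 1 passed with single libraries left out and 11 and 64 without a filter. The scaling matters here: the median log2 fold change of all genes was 0.155 for muMt-/- against WT and 0.208 for GABA-treated muMt-/- against WT with TMM, and 0.060 for both with DESeq2 size factors. Relative to the median of all genes, the members' own medians of -0.13 and -0.21 are lower still.

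The member with the largest shift for its error was *Tnfaip3*. Its normalized number was 26.4, 34.0 and 49.5 (lowest, median, highest) in WT CD8+ T cells, 25.4, 30.9 and 39.6 in muMt-/- and 13.4, 19.4 and 37.0 in GABA-treated muMt-/- CD8+ T cells. In the GABA-treated group 4 of 6 libraries lay below every WT library, with 3 of them from 13.4 to 14.6, and the highest at 37.0 was inside the WT range. The log2 fold change of GABA-treated muMt-/- against WT mice was -0.55 ± 0.26 (edgeR, adjusted p = 0.709), or -0.76 relative to the median of all genes. *Tnip1* ran from 2.40 to 5.72 in WT, from 2.498 to 5.61 in muMt-/- and from 0.91 to 4.34 in GABA-treated muMt-/- mice, with a log2 fold change of -0.57 ± 0.44 for GABA-treated muMt-/- against WT mice (adjusted p = 0.844). For *Tnip1*, too, 4 of 6 GABA-treated libraries were below every WT library.

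*Nfkbia* had normalized numbers of 14.7, 29.0 and 38.9 (lowest, median, highest) in WT, 22.4, 33.8 and 60.7 in muMt-/- and 14.9, 26.3 and 37.8 in GABA-treated muMt-/- CD8+ T cells, and the groups overlapped. Its log2 fold change of muMt-/- against WT was 0.41 ± 0.26 (adjusted p = 0.898 by edgeR), or 0.26 relative to the median of all genes. *Nfkbiz* had medians of 13.2, 12.5 and 12.1 in the same order, with 1 muMt-/- library at 30.3. That library, muMt-/- replicate 1, also held the *Nfkbia* value of 60.7. It had 0.888% of macrophage markers, the highest share of the CD8+ T cell libraries, and 0.220% of T cell markers. Whether these shares bear on either gene was not tested beyond the covariate below. *Nfkbie* was near the limit of detection, with 0 to 6 molecules in a library and none in 2 WT libraries and 1 GABA-treated library, and the 95% interval of its log2 fold change of muMt-/- against WT, from -1.33 to 1.10, included the size of the rise in TAMs.

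Among the subunits, *Nfkb1* had mean normalized numbers of 13.1 ± 5.81 (SD, n = 6) in WT, 10.4 ± 4.43 in muMt-/- and 11.4 ± 5.12 in GABA-treated muMt-/- CD8+ T cells. *Rela* had means of 5.86 ± 2.36, 5.46 ± 1.41 and 5.73 ± 2.65, and *Nfkb2* of 7.14 ± 2.64, 6.08 ± 2.87 and 6.46 ± 2.03. These 3 genes were alike in the 3 groups within their spread. *Rel* had 0 to 8 molecules in a library and a log2 fold change of -1.03 ± 0.51 for GABA-treated against untreated muMt-/- mice (edgeR, adjusted p = 0.999), with 4 of 6 GABA-treated libraries below every untreated one. *Relb* had 0 to 6 molecules and differed in no comparison beyond its spread.

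The CD8+ T cell libraries also held macrophage transcripts, with higher medians in both muMt-/- groups and ranges that overlapped. The 22 macrophage markers made up 0.039% to 0.311% of molecules in WT libraries, with a median of 0.066%, 0.159% to 0.888% in muMt-/- libraries, with a median of 0.226%, and 0.057% to 0.515% in GABA-treated muMt-/- libraries, with a median of 0.323%. Between 2 and 18 of the 22 were found in a WT library, 15 to 20 in a muMt-/- library and 10 to 22 in a GABA-treated library. *Ctss* was the most abundant of them, with 93, 330 and 300 molecules summed over the 6 libraries of each group, and *Adgre1* and *Mertk* were at 0 in all 6 WT libraries. The 3 GABA-treated libraries with *Tnfaip3* from 13.4 to 14.6 had 0.484%, 0.335% and 0.515% of macrophage markers, and the other 3 had 0.087%, 0.057% and 0.310%. The share of *Rn45s* was 10.67%, 11.38% and 8.63% in the former and 5.03%, 3.28% and 4.22% in the latter. Whether either share bears on *Tnfaip3* was not tested beyond the covariate below. With the log2 share of these markers as a covariate the log2 fold change of *Tnfaip3* for GABA-treated muMt-/- against WT mice was -0.29 in place of -0.55, and 0 of 10 members passed in each of the 3 CD8+ T cell comparisons. Of all genes 0% passed with this covariate for muMt-/- against WT mice. For GABA-treated against untreated muMt-/- mice 0.09% passed, and for GABA-treated muMt-/- against WT mice 0.06%.

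**Figure D2:**
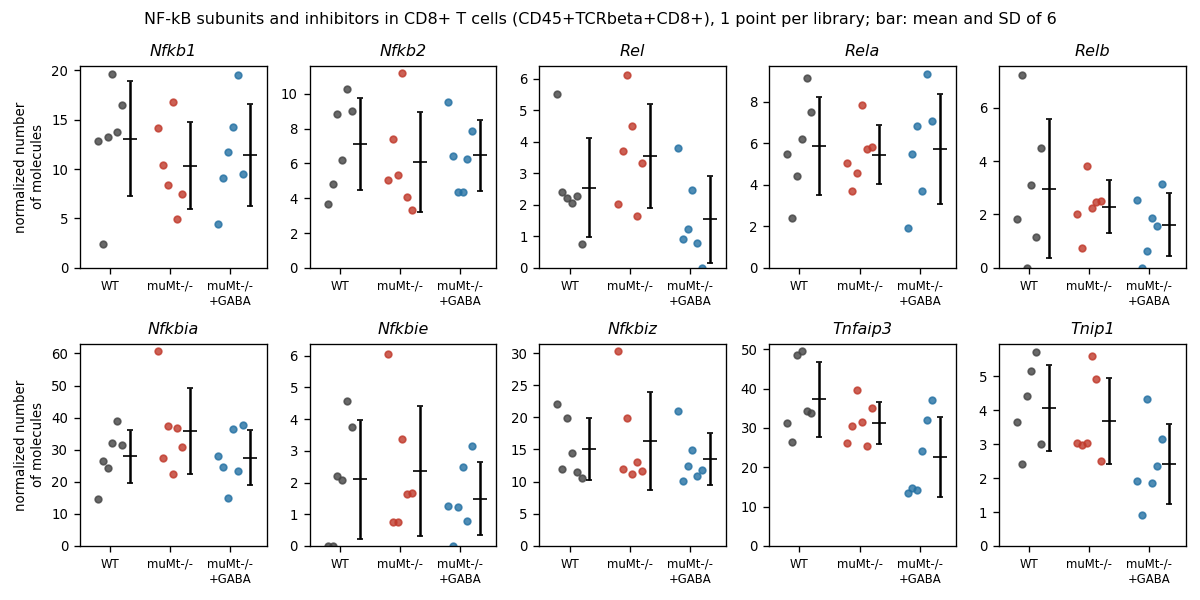
Normalized numbers of molecules of the 10 genes in CD8+ T cells, 1 panel per gene with its own axis from 0, 1 point per library in WT, muMt-/- and GABA-treated muMt-/- mice, and a bar for the mean and SD of 6 libraries. *Tnfaip3* has 3 GABA-treated libraries between 13.4 and 14.6, and *Nfkbie*, *Rel* and *Relb* reach 0 in single libraries.

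Levels in TAMs and CD8+ T cells of WT mice were compared in a fit of all 36 libraries, with size factors over the 36. *Tnfaip3* was 63.3 ± 16.1 (SD, n = 6) in WT CD8+ T cells and 10.1 ± 3.80 in WT TAMs on that scale, a log2 fold change of TAM against CD8 of -2.44 ± 0.27 (edgeR, adjusted p = 9.33e-11). *Nfkb2* was 12.04 ± 4.24 and 4.66 ± 2.33 (log2 fold change -1.29 ± 0.34, adjusted p = 0.00334), *Nfkbia* 47.3 ± 13.4 and 24.6 ± 5.49 (-0.82 ± 0.25, adjusted p = 0.0127) and *Nfkb1* 22.1 ± 9.91 and 12.02 ± 3.36 (-0.83 ± 0.29, adjusted p = 0.0298). These 4 of the 10 members passed, all 4 lower in TAMs, where 22.7% of the 8477 genes passed in either direction and 5.99% passed as lower in TAMs. At an unadjusted p under 0.05 they were again 4 of 10, beside 32.6% of all genes.

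These levels are shares of a library's molecules, and a WT TAM library held a mean of 244700 molecules against 43810 in a WT CD8+ T cell library. In raw counts, from equal numbers of sorted cells, the direction differed for 3 of the 4 and not for *Tnfaip3*. The molecules summed over 6 libraries were 333 in WT TAMs and 137 in WT CD8+ T cells for *Nfkbia*, 161 and 67 for *Nfkb1*, 62 and 35 for *Nfkb2*, and 141 and 173 for *Tnfaip3*. The median log2 fold change of all genes was 0.359 here with TMM and 0.199 with DESeq2 size factors. Relative to the former, the log2 fold changes were -2.80 for *Tnfaip3*, -1.64 for *Nfkb2*, -1.19 for *Nfkb1* and -1.18 for *Nfkbia*, and the 4 members passed with either scaling. *Nfkb1* did not pass without a filter on low counts (adjusted p = 0.067), nor without CD8+ T cell WT replicate 4 (0.108) or 6 (0.113) or TAM WT replicate 3 (0.058), 4 (0.057) or 6 (0.056), and *Nfkbia* did not pass without CD8+ T cell WT replicate 5 (adjusted p = 0.057). In these settings the log2 fold change of *Nfkb1* lay between -0.78 and -0.71, and that of *Nfkbia* was -0.69. *Nfkbiz* (26.4 ± 0.95 in TAMs and 25.6 ± 8.42 in CD8+ T cells), *Rela*, *Rel*, *Relb*, *Nfkbie* and *Tnip1* did not pass.

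Over the 6 groups on this scale *Tnfaip3* ordered as WT, muMt-/- and GABA-treated muMt-/- CD8+ T cells at 63.3, 52.6 and 38.4, then muMt-/-, WT and GABA-treated muMt-/- TAMs at 12.02, 10.1 and 8.89. The SDs were 16.1, 9.15 and 18.1 in the CD8+ T cell groups and 4.75, 3.80 and 3.002 in the TAM groups, in the same order, so the gap between the cell types was wider than any SD of the 6 groups. *Nfkbie* ordered differently, with muMt-/- TAMs at 8.44 ± 2.17 above GABA-treated muMt-/- TAMs at 4.80 ± 1.05, WT TAMs at 4.19 ± 1.43, and the CD8+ T cell groups at 3.95 ± 3.33, 3.52 ± 3.13 and 2.54 ± 1.99 for muMt-/-, WT and GABA-treated muMt-/- mice.

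Whether TAMs and CD8+ T cells responded differently was tested as an interaction in the same fit. For the loss of B cells 0 of 10 members passed, where 0.0118% of the 8477 genes (1 gene) did, a number that was 9 without CD8+ T cell WT replicate 5, 4 and 3 without CD8+ T cell muMt-/- replicates 6 and 2, 0 without CD8+ T cell WT replicate 4 or 6, CD8+ T cell muMt-/- replicate 1 or TAM muMt-/- replicate 5, and 79 without a filter on low counts. For the same effect, 0 of 10 had an unadjusted p under 0.05, where 10.1% of all genes did. For GABA in muMt-/- mice 0 of 10 passed, beside 0% of all genes, and 0 of 10 had an unadjusted p under 0.05, beside 4.53%. The number of all genes that passed was 17 without a filter on low counts. It was 2 without GABA-treated CD8+ T cell replicate 1 and 1 without CD8+ T cell muMt-/- replicate 6. DESeq2's Wald test gave 0 members with an adjusted or unadjusted p under 0.05 for both, beside 7.08% and 4.26% of all genes unadjusted. For the loss of B cells it gave an adjusted p for 6 of the 10 members only, and 0.376% of 2395 genes passed. The difference in response of *Nfkbie* to the loss of B cells was 1.08 ± 0.65 on the log2 scale (edgeR, adjusted p = 0.579), or 1.38 relative to the median of all genes, which was -0.297 with TMM and -0.107 with DESeq2 size factors, so its rise in TAMs was not shown to differ from CD8+ T cells.

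**Figure D3:**
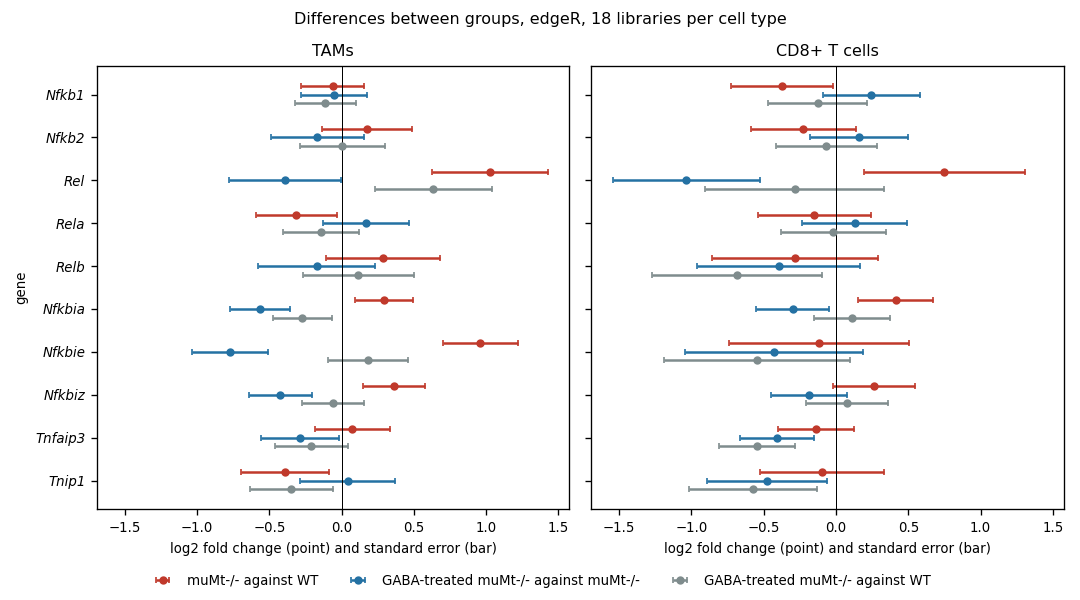
Log2 fold changes of the 10 genes with their standard errors in TAMs and CD8+ T cells, for muMt-/- against WT, GABA-treated against untreated muMt-/- and GABA-treated muMt-/- against WT mice, 6 libraries per group. In TAMs *Nfkbie* lies at 0.96 for muMt-/- against WT and at -0.77 for GABA-treated against untreated muMt-/- mice.

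Other genes of the pathway were taken from 3 lists. Of 20 other genes of the IκB family or with a restraint on NF-κB, such as *Nfkbib* and *Cyld*, 19 were tested in TAMs. By edgeR 0 passed for muMt-/- against WT, GABA-treated against untreated muMt-/- or GABA-treated muMt-/- against WT mice. At an unadjusted p under 0.05 there were 3, 0 and 3, beside 14.9%, 8.46% and 7.02% of all genes, and DESeq2 gave 1, 0 and 0 after adjustment, beside 4.82%, 7.14% and 1.01% of the genes it gave an adjusted p. For muMt-/- against WT 12 of the 19 were higher and 7 lower, with a median log2 fold change of 0.275 beside -0.047 for all genes. Of the first 3, 1 was higher and 2 were lower, among the latter *Nfkbid*, the gene of IκBNS, which is named here after its values were seen. It ran from 6.82 to 9.44 in WT and from 1.55 to 5.53 in muMt-/- TAMs, and how many of all genes had no overlap was not counted. It did not pass (log2 fold change -1.19 ± 0.36, adjusted p = 0.072 by edgeR), where 2.05% of all genes did. *Cyld*, a deubiquitinase that opposes NF-κB activation, ran from 5.65 to 15.0 in WT TAMs and from 12.5 to 16.96 in muMt-/- TAMs (log2 fold change 0.38 ± 0.27, adjusted p = 0.551), and *Nfkbib*, the gene of IκBβ, had a log2 fold change of 0.27 ± 0.32 and *Bcl3* one of -0.23 ± 0.35. Of 36 genes of the IKK complex and its upstream adaptors, 34 were tested in TAMs and 0 passed in the same 3 comparisons by edgeR, with 3, 2 and 2 at an unadjusted p under 0.05, beside the same shares of all genes, and 0 in each by DESeq2 after adjustment. The kinases *Ikbkb* and *Chuk* had log2 fold changes of 0.45 ± 0.33 and 0.48 ± 0.29 for muMt-/- against WT, and *Birc3* one of 0.44 ± 0.31, while *Ikbkg* was at 0 to 6.41 normalized molecules in a TAM library.

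Of 44 classical NF-κB target genes, 38 were tested in TAMs and 3 passed for muMt-/- against WT mice, all 3 higher, beside 2.05% of all genes, while DESeq2 called 5, beside 4.82%. At an unadjusted p under 0.05 there were 14, beside 14.9% of all genes, 12 higher and 2 lower. The 2 lower were *Cxcl10* (log2 fold change -0.68 ± 0.25, adjusted p = 0.143) and *Ccl2* (-0.54 ± 0.21, adjusted p = 0.190), named after their values were seen, and neither passed. *Gadd45b*, a stress response gene, ran from 3.77 to 8.30 in WT and from 9.32 to 26.5 in muMt-/- TAMs (log2 fold change 1.14 ± 0.30, adjusted p = 0.0317 by edgeR). *Cxcl2*, a neutrophil chemokine, ran from 58.0 to 129.3 and from 119.0 to 216.2 (0.87 ± 0.20, adjusted p = 0.0123), and *Ptgs2*, the gene of cyclooxygenase-2, from 29.8 to 78.5 and from 71.3 to 149.2 (0.90 ± 0.22, adjusted p = 0.0218). With log2 molecules or the share of *Rn45s* or *Mir6236* as a covariate none of the 3 passed, with adjusted p from 0.065 to 0.600. In that order of covariates the log2 fold changes were 0.64, 0.79 and 0.68 for *Cxcl2* and 0.78, 0.60 and 1.13 for *Ptgs2*. For *Gadd45b* they were 0.66, 0.79 and 0.83. Leaving out single libraries, *Cxcl2* passed in 11 of 12 refits and not without WT replicate 1, *Ptgs2* in 9 and not without WT replicates 1 and 3 or muMt-/- replicate 4, and *Gadd45b* in 7 and not without WT replicates 1, 4 and 5 or muMt-/- replicates 1 and 4. With a robust edgeR fit *Ptgs2* did not pass either (log2 fold change 0.90, adjusted p = 0.0648). The list's median log2 fold change was 0.148, beside -0.047 for all genes and 0.232 for the 10 members. *Il1b* (0.62 ± 0.19, adjusted p = 0.0797), *Tnf* (-0.05 ± 0.38) and *Cd83* (-0.06 ± 0.26) did not pass.

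For GABA-treated against untreated muMt-/- TAMs 0 of the 38 target genes passed by edgeR, and at an unadjusted p under 0.05 there were 8, of which 7 were lower, beside 8.46% of all genes. DESeq2 called 2 after adjustment here, beside 7.14% of the 840 genes it gave an adjusted p, and 6 at an unadjusted p under 0.05, beside 6.13%. *Cxcl2* had a log2 fold change of -0.84 ± 0.20 (adjusted p = 0.117) and *Gadd45b* one of -0.96 ± 0.30 (adjusted p = 0.282). The list's median was -0.190 here, that of the members -0.229 and that of all genes 0.059. In CD8+ T cells 0 of the 34 target genes tested passed for muMt-/- against WT mice by edgeR, with 11 at an unadjusted p under 0.05, beside 6.17% of all genes. By DESeq2 these counts were 0 and 6, beside 0% and 3.33% of all genes. Of the 11, 10 were higher, as were 358 of the 411 among all genes. The macrophage markers had a median share of 0.066% in the WT and 0.226% in the muMt-/- libraries compared here. Of the 11, 10 were higher and 1 was lower in TAMs than in CD8+ T cells of WT mice by edgeR after adjustment. Of the 38 genes of the list tested there 23 were higher and 7 lower, beside 1420 higher and 508 lower of all 8477 genes. Whether macrophage transcripts bear on the 11 genes was not tested.

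The correlation of members from library to library was low at the median. Over the 45 pairs of members in 18 TAM libraries, Pearson's r of log2(normalized number + 1) had a median of 0.07, from -0.68 for *Rel* with *Tnip1* to 0.59 for *Rel* with *Nfkbiz*. In 18 CD8+ T cell libraries the median was 0.12, and the highest value was 0.68 for *Nfkb1* with *Rela*. For several members, such as *Nfkb1* and *Nfkb2* in TAMs, the spread was near that of counting alone, which pulls r towards 0. A low median therefore cannot show whether the members move together. The libraries share their depth across genes, so these values are a description. Closest to the mean z-score of the 9 TAM members with a mean of at least 5 were *Rab43* (r = 0.771 over 18 libraries), *Ccrl2* (0.734), *Sp100* (0.732), *Fbxo18* (0.706) and *Sbds* (0.695), among 5301 genes. These values pool the 3 groups, and within groups r was 0.592, 0.596, 0.579, 0.638 and 0.602 in the same order, which changes the order of the genes. In CD8+ T cells, with 6 members in the score and 1877 genes, they were *Zc3h7a* (0.742), *Atp2b4* (0.657), *Ndufa11* (0.646), *Cox7a2l* (0.643) and *Ccr7* (0.635), with 0.721, 0.605, 0.666, 0.626 and 0.637 within groups.

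In the mouse genome (mm10, GRCm38) the subunit genes lie at chr3:135584655-135691969 (*Nfkb1*), chr19:46300994-46312400 (*Nfkb2*), chr11:23736847-23770969 (*Rel*), chr19:5637442-5648134 (*Rela*) and chr7:19606217-19629438 (*Relb*). The IκB family genes lie at chr12:55489409-55492647 (*Nfkbia*), chr17:45555700-45563169 (*Nfkbie*) and chr16:55811375-55838954 (*Nfkbiz*), *Tnfaip3* at chr10:19000910-19015410 and *Tnip1* at chr11:54910787-54962956. RefSeq promoter sequences of 7 members (GRCm38.p6) were searched on both strands, over the 250 bases before each annotated start, for the κB consensus, a run of 10 bases made of 3 G, a purine, 2 bases of any kind, 2 pyrimidines and 2 C. It was found for 6 of the 7, *Nfkb2*, *Rel*, *Nfkbia*, *Nfkbie*, *Tnfaip3* and *Tnip1*, and not for *Rela*, beside 8.23% of all 27025 genes with a promoter sequence. A match is a description of letters and not a shown binding site. The stretches around the matches of *Nfkbie* and *Nfkbia*, the members under an unadjusted p of 0.05 for GABA-treated against untreated muMt-/- TAMs, are shown with the match in capitals. They run in the direction of transcription, from chr17:45555569-45555628 on the plus strand and chr12:55492648-55492701 on the minus strand. The match of *Nfkbie* reads as the consensus in this direction. That of *Nfkbia* lies on the opposite strand, so the consensus is the reverse complement of its capitals.
Nfkbie: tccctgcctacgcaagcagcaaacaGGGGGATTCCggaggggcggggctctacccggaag
Nfkbia: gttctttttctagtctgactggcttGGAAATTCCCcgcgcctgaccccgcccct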

How the data were processed

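Digital RNA sequencing of 36 libraries was used, 18 of TAMs and 18 of CD8+ T cells. The authors aligned reads with STAR to mm10 and deposited a table of molecule counts, in which 26 genes are named by a date; 0 pairs of columns were identical and 0 columns had no sample. Counts were tested with edgeR 4.0.16 (R 4.3.3; TMM, quasi-likelihood F-test, 1 coefficient per group, 18 libraries per cell type or all 36), on genes with a mean DESeq2-normalized number above 1 (DESeq2 1.42.0), with Benjamini-Hochberg adjustment over all genes tested and a threshold of 0.05. Standard errors are the absolute log2 fold change divided by the square root of F, and 95% intervals follow from them. The members and gene lists were chosen with earlier results of these data known. Named were all members, 11 pathway genes fixed by name, up to 5 passing genes per list and comparison with a mean of at least 5, and the 5 genes most alike per cell type; *Nfkbid*, *Cxcl10* and *Ccl2* were added after their values were seen. The fits were also tried on simulated data, and no result above rests on that. Alternatives were other size factors, DESeq2's test, other filters, fewer libraries, a replicate block and covariates. Coordinates and promoters came from RefSeq.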

Additional observations from a re-analysis of the deposited data

Results flagged for a closer look

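In 4 of the 60 sets of 6 libraries (10 genes in 6 groups) 1 library lay far from the other 5 by Dixon's test, and chance gives about 1 in 20. *Rel* was 23.9 in GABA-treated muMt-/- TAM replicate 1 (18 molecules), with the others from 3.60 to 8.24. *Nfkb1* was 27.5 in GABA-treated muMt-/- TAM replicate 4 (30 molecules), with the others from 14.2 to 19.1. *Relb* was 7.53 in WT TAM replicate 5 (12 molecules), with the others from 1.84 to 3.63. *Rel* was 5.50 in WT CD8+ T cell replicate 1, which is 3 molecules, with the others from 0.75 to 2.40. None of these 4 concerns a member that passed in its cell type's comparisons. The same TAM library with the high *Rel* value had the largest share of *Rn45s* of all 36, at 19.9% of molecules. No member passed the interaction test for a difference in response between the cell types.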

How the results depend on the processing

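For muMt-/- against WT TAMs, the count of members that passed was 1. It was 0 without a filter on low counts, 0 with log2 molecules as a covariate, and 0 with the log2 share of *Rn45s* or of *Mir6236* as a covariate, the last 2 settings chosen after seeing the data. It was 2 by DESeq2's unadjusted p (11.7% of all genes), and 0 to 1 when single libraries were left out (1 in 3 of 12 refits). With a replicate block it was 0. By the same DESeq2 criterion the count was 2 in place of 0 for GABA-treated against untreated muMt-/- TAMs (6.13%), and 1 in place of 0 for GABA-treated muMt-/- against WT CD8+ T cells (3.33%). *Nfkbie* kept its direction in all 10 other settings, with log2 fold changes from 0.80 to 0.99 and adjusted p from 0.0168 to 0.387. The causes of these changes were not tested.

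In the TAM comparison of muMt-/- with WT mice the replicate block called 201 of all genes beside 194 without it, log2 molecules as a covariate 11, the *Rn45s* covariate 87, the *Mir6236* covariate 4, and a fit of the groups compared alone 324. Same-numbered libraries did not in general deviate together: r had a median of 0.0008 in TAMs and -0.02 in CD8+ T cells. It ran from -0.21 to 0.12 in TAMs and from -0.39 to 0.45 in CD8+ T cells, above 0.1 in 1 and 6 of 18 pairs. In CD8+ T cells the 3 pairs of replicate 4 had r of 0.193, 0.277 and 0.283. Pairs with different numbers also lay this far from 0. WT replicate 5 with GABA-treated replicate 1 had r of 0.371, and muMt-/- replicate 1 with GABA-treated replicate 5 had -0.506. For TAM against CD8 in WT mice 4 members passed, 3 without a filter on low counts (13.2% of all genes), 5 by DESeq2's unadjusted p (28.8%), and 3 to 4 with single libraries left out (4 in 6 of 12 refits). Of the members' log2 fold changes in other settings none was reversed past the threshold. With DESeq2 size factors the sign turned for *Nfkbia* and *Nfkbiz* in GABA-treated muMt-/- against WT CD8+ T cells, for *Nfkbie* in TAM against CD8, and for *Rela* and *Nfkbia* in the response to B cell loss, all short of the threshold. Over all settings other than leaving out a library, these included, 43 values turned in sign, none of them past the threshold before or after, and 81 did with a library left out. In muMt-/- against WT TAMs covariates for molecules or for the share of *Rn45s* or *Mir6236* turned *Rela* to 0.135 at most, *Nfkbiz* to -0.05, *Tnip1* to 0.02, and *Nfkb1* to 0.03, while *Tnfaip3* went to -0.44 with *Mir6236* and to 0.54 with *Rn45s*. For GABA-treated against untreated muMt-/- TAMs *Rel* turned to 0.16 with the *Rn45s* covariate. Depth limits *Rel*, *Relb*, *Nfkbie* and *Tnip1* in CD8+ T cells most.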
